A study of Mus musculus with 26 samples.

Results

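The cells described here are the Upk3b-high cells of fetal mouse ovaries, a group that carries markers of the surface epithelium. They are cells of the Negative sort gate with at least 100 CPM (counts per 1000000 UMIs) of Upk3b, below 200 CPM of Tyrobp, a macrophage gene, and below 100 CPM of Asz1, a germ cell gene. This gave 93 of 529 Negative cells, a share of 17.6% (exact 95% interval 14.4% to 21.1%, which covers counting error only), of 1881 cells in the series. The members came from 16 of the 18 libraries that hold Negative cells. Gonads of female BVSC fetuses, whose Blimp1-mVenus and Stella-ECFP transgenes report germ cells, were taken on embryonic days E11.5 to E18.5, and gonads of several embryos were pooled for each stage. Every animal carried both transgenes, no treatment other than trypsin digestion was given, and single cells were picked by hand after fluorescence sorting. The values are unique molecular identifier (UMI) counts from a 3'-end protocol. Stages, libraries and gates come from the deposited cell table, in which Negative is the gate without either reporter. The labels do not say that libraries of a stage came from separate embryos, so a p-value here reflects variation from library to library, some of which may be technical.

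The ovarian surface epithelium is the single layer of cells that covers the ovary. It derives from the coelomic epithelium, the mesothelial lining from which the early gonad also draws supporting cells. It is known for mesothelial membrane proteins such as uroplakin 3b (Upk3b), for the apical sialomucin podocalyxin (Podxl), and in mice for Lgr5, the R-spondin receptor that marks proliferating cells of this layer. Supporting cells become the pregranulosa cells that surround oocytes, and stromal cells form the connective tissue between them.

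For comparison, the 400 other Negative cells under the same Tyrobp and Asz1 limits were used, and these were divided further. Stroma-marker cells (131) had a summed level of Tcf21, Pdgfra and Dcn of at least 200 CPM, and the remaining 269 cells had less. Another 36 Negative cells failed a limit, 8 of them on Tyrobp and 29 on Asz1, and 3 of these 36 were Upk3b-high. Members had a median of 89949 UMIs in the part of the count table read here (range 5337 to 284902) and of 7668 genes. The other classes had medians of 82170 UMIs in stroma-marker cells and 89253 UMIs in remaining cells. No 2 cells of the table had identical counts.

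Upk3b chose these cells, so its level is given as a description. Its median per member was 1105 CPM and its range 100.1 to 5931 CPM, and pools of other Negative cells had 0.803 to 62 CPM. By stage the median member had 652 CPM of Upk3b at E11.5, 612 at E12.5, 1204 at E13.5, 1060 at E14.5, 1315 at E15.5, 1098 at E16.5, 1731 at E17.5 and 2467 CPM at E18.5. The 5 members just above the limit had 100.1 to 128 CPM, and the 5 cells just below it had 91.7 to 99.0 CPM. Of these 10 cells, 6 were in library 23. In libraries 13, 19, 21 and 23, Upk3b UMIs were found in 90.3% to 100% of the other Negative cells, at medians of 24.6, 31.4, 36.1 and 63.7 CPM. In the other libraries with at least 5 Negative cells the share was 4.17% to 50% and the median 0 to 3.76 CPM. These 4 libraries hold Negative cells only, as do libraries 15 and 17, where 9.09% and 48.7% of the other cells had a Upk3b UMI and the median was 0. Genes chosen for going with Upk3b in these same cells are given by Upk3b level as a description. The 82 members of at least 250 CPM had UMIs of a median of 5 among the 7 genes Bnc1, Lrrn4, Ildr2, Frem2, Stk26, Irf5 and Sox6, and the 11 members of 100 to 250 CPM had 4. The 43 other cells of 50 to 100 CPM had 2 of these genes, and the 221 others without a Upk3b UMI had 1. Mean levels of the 11 weaker members were low for some of these genes. Frem2 had a mean of 180 CPM in the 82 stronger members, 21.01 CPM in the 11 weaker ones and 18.6 CPM in the others of 50 to 100 CPM. Stk26 had 198, 21.4 and 23.5 CPM in the same bins, and Bnc1 had 89.6, 33.3 and 4.96 CPM. Library 23 holds 4 of those 11 weaker members. Whether Upk3b RNA carried between cells has a part in the low levels of libraries 13, 19, 21 and 23, or in the members near 100 CPM there, was not tested.

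**Figure D1:**
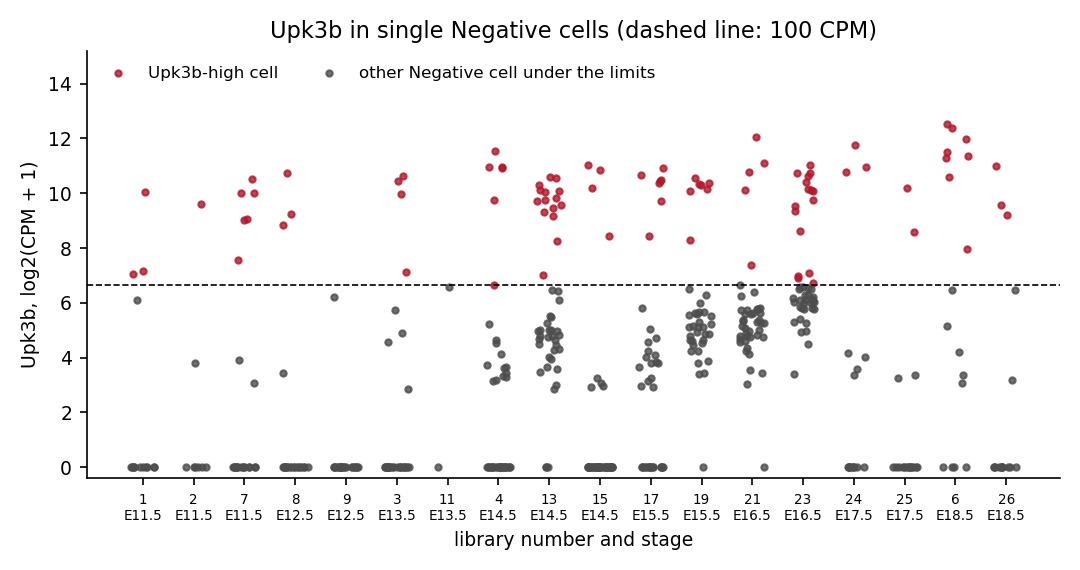
Upk3b level of each Negative cell under the Tyrobp and Asz1 limits, as log2(CPM + 1), by library number and stage; red points are Upk3b-high cells, grey points other Negative cells, and the dashed line is 100 CPM. Most members lie well above the line, while the other cells of libraries 13, 19, 21 and 23 form a band below it with medians of 24.6 to 63.7 CPM.

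The markers tied to the surface epithelium were present in these cells, with different strength. Podxl had UMIs in 94.6% of members (88 of 93), against 65.6% of stroma-marker cells and 84.0% of remaining cells. Bnc1, the zinc finger protein basonuclin 1, had UMIs in 59.1% of members, against 15.3% of stroma-marker cells and 14.9% of remaining cells. Lgr5 had UMIs in 67.7% of members, against 50.4% and 56.1% of these classes. After each cell was thinned to 20000 UMIs, which left out 8 members, 12 stroma-marker cells and 15 remaining cells, the shares for Bnc1 were 47.1%, 6.72% and 5.51% in the same order of classes. Those for Podxl were 90.6%, 52.1% and 72.4%, and those for Lgr5 were 55.3%, 29.4% and 39.8%. Reporter-positive BVSC cells, which carry the germ cell reporters, had UMIs of Bnc1 in 40.0% and of Podxl in 32.9% of 1302 cells (19% and 8.84% thinned) at a median depth of 127728 UMIs. Over all stages Bnc1 had a mean of 83.0 CPM per member and 23.4 CPM per BVSC cell, and Podxl 528 CPM and 11.6 CPM. By stage Bnc1 was lower per member than per BVSC cell at E15.5 (29.4 against 48.3 CPM) and E17.5 (2.36 against 21.7 CPM). It was also lower at E18.5 (40.1 against 49.0 CPM), and it was higher per member at the other stages.

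The share of Upk3b-high cells among Negative cells did not show a change with stage beyond the spread between libraries. It was 21.7% at E11.5 (10 of 46 cells), 6.52% at E12.5 (3 of 46), 12.1% at E13.5 (4 of 33) and 18.2% at E14.5 (25 of 137). At later stages it was 16.47% at E15.5 (14 of 85), 22.8% at E16.5 (21 of 92), 10.9% at E17.5 (5 of 46) and 25% at E18.5 (11 of 44). Libraries of E15.5 to E18.5 averaged 18.7% ± 10.5 (SD, n = 8) and those of E11.5 to E14.5 averaged 15.6% ± 9.61 (SD, n = 9). The difference of 3.18 percentage points had a two-sided exact permutation p of 0.519. Hand picking and the gate can set such shares. Libraries 1 and 2 of E11.5, and libraries 4 and 13 of E14.5, carry the same deposited replicate name R1, and each counts as a separate library here and in the slopes.

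**Figure D2:**
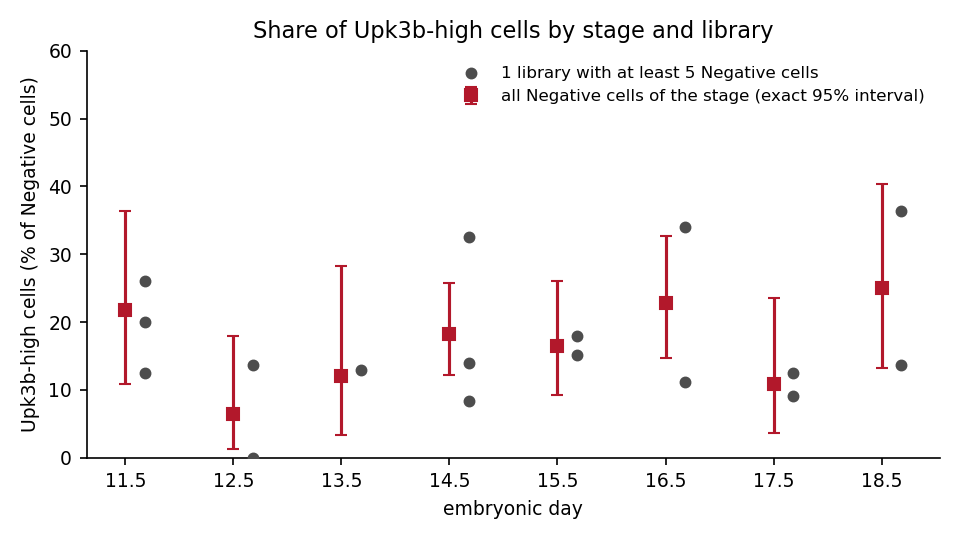
Upk3b-high cells as a percentage of Negative cells by embryonic day; red squares pool all Negative cells of a stage with exact 95% intervals, and grey points are single libraries with at least 5 Negative cells. The libraries of a stage spread as widely as the stages, from 0 to 36.4%.

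The cell names of E13.5 to E16.5 also carry a letter, C, D or P, whose meaning the sources used here do not give. Members made up 26.6% of the D cells (29 of 109), 13.2% of the C cells (16 of 121) and 16.2% of the P cells (19 of 117). The excess of D cells lay in 2 libraries. In library 13 members were 9 of 15 D cells, and in library 23 they were 10 of 16 D cells, while in the other 5 libraries with at least 15 D cells the D share was 6.67% to 18.8%. Libraries 13 and 23 held the most members, 15 and 16 cells.

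To ask which genes go with Upk3b, the counts of members and of other Negative cells were summed per library into pools of at least 3 cells and compared within libraries. There were 14 member pools (90 cells, 87930 to 2538838 UMIs a pool), each paired with the other cells of its library (352 cells). Since Upk3b divided the cells, genes that vary with it must differ between the classes, and the adjusted p-values say only how steady a difference was across libraries. Of 5457 genes tested with edgeR's quasi-likelihood test, 192 were higher and 335 lower at an adjusted p of at most 0.05, so the background is 9.66% in either direction, 3.52% higher and 6.14% lower. The median log2 difference of all genes was -0.21, and with upper-quartile scaling 143 genes were higher and 403 lower.

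Lrrn4, Bnc1, Frem2 and Ildr2 were among the 12 highest genes. Lrrn4, a leucine-rich repeat membrane protein, had 0 to 146 CPM in the 14 member pools (median 104), against 0 to 27.2 CPM in 17 pools of other cells (median 1.13). Its 2 member pools at 0 were those of E12.5 and E17.5, and all other member pools but the E16.5 pool of 18.3 CPM lay above the other pools. The log2 difference of Lrrn4 was 4.98 ± 0.70 (SE, adjusted p = 2.91e-05, edgeR), in the same direction in 12 of 14 libraries. Bnc1 had 4.21 to 209 CPM in member pools (median 62.1), against 0 to 28.1 CPM in other pools (median 2.27), a log2 difference of 3.73 ± 0.52 (adjusted p = 2.82e-05, higher in 13 of 14 libraries). Frem2, which joins Fras1 in a protein complex of the epithelial basement membrane, had 6.64 to 328 CPM (median 145), against 0 to 34.4 CPM (median 4.70), a log2 difference of 4.01 ± 0.51 (adjusted p = 1.07e-05). Ildr2, an immunoglobulin-like receptor of cell contacts, was at 74.7 to 722 CPM in member pools and at 0 to 49.1 CPM in other pools. Pools of the remaining cells alone reached 136 CPM of Ildr2, above the lowest member pool.

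These positions and start regions identify the leading genes on the GRCm38 build. Upk3b lies at chr5:136038496-136046487 on the plus strand, Lrrn4 at chr2:132868305-132880891 on the minus strand, Frem2 at chr3:53513938-53657355 on the minus strand, Bnc1 at chr7:81966672-81992292 on the minus strand and Ildr2 at chr1:166254139-166316823 on the plus strand. The regions of 300 bases from 250 before to 50 after the start come from RefSeq for GRCm38.p6. They are shown for Upk3b, which chose the cells, and for genes that were higher in members. They span chr5:136038246-136038545 for Upk3b, chr2:132880813-132881112 for Lrrn4, chr3:53657306-53657605 for Frem2, chr7:81992250-81992549 for Bnc1 and chr1:166253889-166254188 for Ildr2. Each is written 5′ to 3′ on the strand of its gene, and capitals mark CATTCC or its reverse complement GGAATG, a motif chosen after the Upk3b sequence had been seen.
Upk3b: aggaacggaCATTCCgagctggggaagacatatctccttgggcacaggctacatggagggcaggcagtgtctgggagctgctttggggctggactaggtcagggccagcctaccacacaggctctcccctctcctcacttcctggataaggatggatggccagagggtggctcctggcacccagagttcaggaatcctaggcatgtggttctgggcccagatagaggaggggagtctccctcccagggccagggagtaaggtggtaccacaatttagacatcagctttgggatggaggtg
Lrrn4: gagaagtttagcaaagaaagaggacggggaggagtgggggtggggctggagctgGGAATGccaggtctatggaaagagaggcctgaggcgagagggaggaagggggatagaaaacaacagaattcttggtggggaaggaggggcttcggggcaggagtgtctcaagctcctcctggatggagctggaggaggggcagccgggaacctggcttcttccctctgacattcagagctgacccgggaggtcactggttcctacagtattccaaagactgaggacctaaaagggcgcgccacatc
Frem2: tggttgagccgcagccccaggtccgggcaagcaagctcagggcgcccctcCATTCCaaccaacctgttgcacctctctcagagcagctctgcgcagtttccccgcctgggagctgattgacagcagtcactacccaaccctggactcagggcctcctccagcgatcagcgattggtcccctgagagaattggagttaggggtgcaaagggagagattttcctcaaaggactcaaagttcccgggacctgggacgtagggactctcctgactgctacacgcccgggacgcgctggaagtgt
Bnc1: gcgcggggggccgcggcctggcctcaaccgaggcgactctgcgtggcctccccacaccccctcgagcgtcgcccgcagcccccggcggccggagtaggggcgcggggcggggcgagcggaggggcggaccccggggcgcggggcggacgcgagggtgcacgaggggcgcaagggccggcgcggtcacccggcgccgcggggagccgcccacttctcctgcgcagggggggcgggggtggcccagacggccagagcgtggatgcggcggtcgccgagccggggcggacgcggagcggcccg
Ildr2: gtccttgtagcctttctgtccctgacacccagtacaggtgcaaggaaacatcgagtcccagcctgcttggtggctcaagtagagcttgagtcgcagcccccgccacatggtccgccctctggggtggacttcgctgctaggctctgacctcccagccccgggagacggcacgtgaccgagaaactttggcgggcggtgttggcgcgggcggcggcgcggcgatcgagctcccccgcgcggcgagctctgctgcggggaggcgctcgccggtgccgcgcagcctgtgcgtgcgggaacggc
The motif was in the promoters of Upk3b, Lrrn4 and Frem2 and not in the windows shown for Bnc1 and Ildr2. It was looked up in 13 genes, Upk3b and the highest genes against other Negative cells. Of these 13 genes, 5 had a match in a window, and some genes had several windows. It was taken from the Upk3b promoter, so the match there follows from the choice. Of all 32851 promoters of this length, 14.7% held it on either strand. That share is per window, while the 5 genes were counted over all their windows with Upk3b included, so the values are not alike. A match is a description of the letters only.

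The other genes of the set with the largest positive differences covered several functions. Sox6, a transcription factor, had 47.8 to 286 CPM in member pools and 0 to 66.4 CPM in other pools (log2 difference 4.65 ± 0.61, adjusted p = 1.48e-05 in edgeR, 14 of 14 libraries). Fmod, the collagen-binding proteoglycan fibromodulin, averaged 61.2 ± 47.7 CPM in member pools and 4.21 ± 5.11 CPM in the paired pools (SD, n = 14 each). Tspan8, a tetraspanin, averaged 130.3 ± 158 CPM and 10.8 ± 23.4 CPM in the same order. Kcnab1, a potassium channel subunit, Sv2a, a vesicle glycoprotein, Nfe2l3, a transcription factor, Kif26b, a kinesin family gene, and Ankrd34a differed by log2 4.07, 3.99, 3.89, 3.88 and 3.67. Kif26b lost its call under 3 alternatives, with pools of at least 2 or at least 5 cells and with a Upk3b limit of 400 CPM, and its lowest log2 difference was 1.71 (adjusted p = 0.491, edgeR). Ankrd34a lost its call with pools of at least 5 cells (0.107). Cldn15, a claudin of tight junctions, did not pass the count filter and had 0 to 420 CPM in member pools (median 59.3), against 0 to 8.57 CPM in other pools.

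Of the genes that stood lowest, Pla2r1 and Rasgrp1 had a median of 0 in member pools. Pla2r1, a phospholipase A2 receptor, was at 0 in 8 of 14 member pools and at most 10.5 CPM, against a median of 65.1 CPM in other pools (log2 difference -5.14 ± 0.67, adjusted p = 1.48e-05 in edgeR, lower in 14 of 14 libraries). Rasgrp1, a Ras exchange factor, was at 0 in 8 member pools and at a median of 42.5 CPM in other pools. Cntn4, a contactin adhesion protein, had a median of 7.27 CPM in member pools (0 to 159 CPM) and 205 CPM in other pools (11.7 to 380 CPM). C1rl, a complement protease-like gene, Dync1i1, a dynein subunit, Gdpd2, a glycerophosphodiesterase, Cpa1, a carboxypeptidase, and Smim10l2a differed by log2 -4.51, -4.39, -4.21, -4.11 and -4.70, with highest member pools of 25.6, 41.3, 51.1, 116 and 87.3 CPM. Smim10l2a lost its call without the library block (-2.08, adjusted p = 0.153 in edgeR), C1rl with pools of at least 5 cells (0.0597) and Gdpd2 with a Upk3b limit of 50 CPM (0.0719). Remaining pools had medians of 52.2 CPM of Rasgrp1 and 241 CPM of Cntn4. Stroma-marker pools were also low for some of these genes, with medians of 0 CPM of C1rl, 0.854 CPM of Smim10l2a and 5.04 CPM of Rasgrp1. Their medians were 12.8 CPM of Dync1i1, 18.1 CPM of Cpa1, 38.1 CPM of Gdpd2, 45.5 CPM of Pla2r1 and 108 CPM of Cntn4. A low level of the first 3 genes is thus not particular to members.

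**Figure D3:**
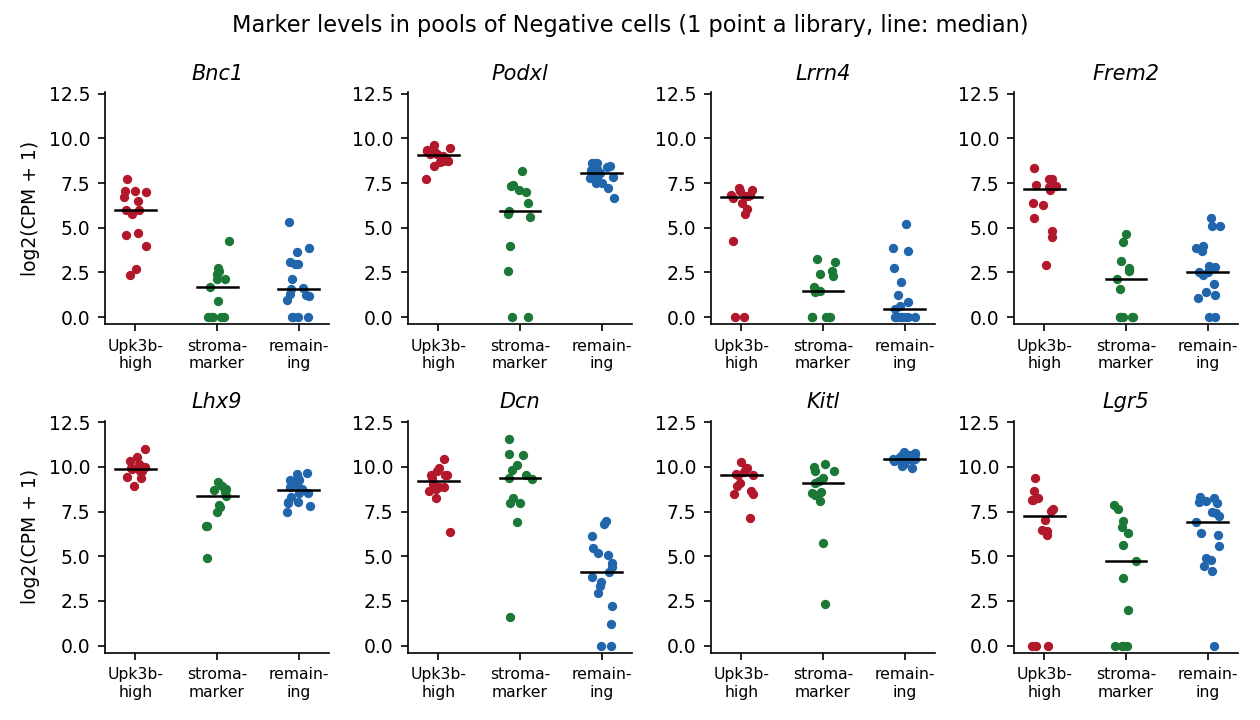
Levels of 8 genes, as log2(CPM + 1), in library pools of Upk3b-high, stroma-marker and remaining Negative cells, with 1 point a pool and a line at the median. Bnc1, Lrrn4 and Frem2 have their highest medians in the Upk3b-high pools, with some overlap between classes, Podxl and Lhx9 are highest there, Kitl is highest in the remaining pools, and Dcn, which defines the stroma-marker class, is high in the first pair of classes.

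The lists of genes by role showed where members and other Negative cells parted. Over all genes tested in this comparison, 3.52% were called higher and 6.14% lower. The surface epithelium and mesothelium list has 15 genes, of which only 7, Upk3b among them, were in the part of the table read here. Of this list, 3 of 6 tested genes were higher in members (Lrrn4, Bnc1 and Podxl) and none was lower. The median log2 difference was 0.84. Podxl had 208 to 801 CPM in member pools (median 535) and 118 to 337 CPM in other pools (median 229), a log2 difference of 1.28 ± 0.18 (adjusted p = 3.22e-05, edgeR), higher in 14 of 14 libraries. Wt1, a transcription factor of the whole early gonad, differed by log2 0.40 ± 0.14 (adjusted p = 0.0744), with a median of 1147 CPM in members and 874 CPM in other cells. Lgr5 differed by log2 0.37 ± 0.45 (adjusted p = 0.670). Nkain4, a further mesothelial gene, had a median of 43.5 CPM in member pools, and 142 CPM in stroma-marker pools and 11.79 CPM in remaining pools.

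Of the supporting and pregranulosa list, 5 of 9 tested genes were lower in members and none was higher, at a median log2 difference of -0.86. Kitl, the ligand of the Kit receptor of germ cells, had a median of 750 CPM in member pools and 1381 CPM in remaining pools, and its log2 difference from other Negative cells was -0.86 ± 0.19 (adjusted p = 0.00276, edgeR). Wnt4, a signal of ovary development, differed by log2 -2.31 ± 0.48, and Wnt6 by -1.19 ± 0.34. Cdkn1b, the cell cycle inhibitor p27, differed by -2.36 ± 0.37. Inha, the inhibin alpha subunit, was also lower (-1.88 ± 0.30). Rspo1, the R-spondin ligand of the WNT pathway, did not pass the test, at medians of 145 CPM in members and 162 CPM in remaining cells.

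Of the early gonad transcription factors, Lhx9, a LIM homeobox gene needed for gonad formation, was the 1 of 6 tested genes that was higher. It had 492 to 2081 CPM in member pools (median 936) and 185 to 704 CPM in other pools (median 403), a log2 difference of 1.42 ± 0.15 (adjusted p = 7.86e-07, edgeR). The stroma list had 3 of 11 tested genes higher, Dcn and Col3a1 among them, and none lower. Dcn, the matrix proteoglycan decorin, had 79.6 to 1371 CPM in member pools (median 604), against medians of 677 CPM in stroma-marker and 16.1 CPM in remaining pools. Tcf21 and Pdgfra, which mark stromal progenitors, had member medians of 116 and 82.8 CPM, and 73 of the 93 members had a summed level of Tcf21, Pdgfra and Dcn over 200 CPM. Col3a1, a fibrillar collagen, had a median of 759 CPM in member pools.

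Of the junction and polarity list, F11r, a junctional adhesion molecule (log2 0.63 ± 0.16, adjusted p = 0.00889 in edgeR), and Prkcz, an atypical protein kinase C of the polarity complex (1.35 ± 0.43, adjusted p = 0.0462), were 2 of 7 tested genes higher and none was lower. Cgn, the tight junction protein cingulin, differed by -0.68 ± 0.27 (adjusted p = 0.118). Against the remaining cells alone, F11r differed by 0.44 ± 0.15 (adjusted p = 0.0604) and Prkcz by 1.24 ± 0.51 (0.113), and neither passed the test. The matrix list had 4 of 17 tested genes higher, Fn1, Col3a1, Fras1 and Frem2, and 1 lower, the laminin Lama4. Fras1 had 45.5 to 572 CPM in member pools and differed by log2 2.04 ± 0.39 (adjusted p = 0.000862), and fibronectin Fn1 differed by 1.23 ± 0.31. Kdr, the receptor VEGFR2, had 18.7 to 423 CPM in member pools (median 181), against a median of 24.2 CPM in other pools (log2 2.82 ± 0.54, adjusted p = 0.000972). Of the other endothelial markers, Tek, Flt1 and Emcn had medians of 0 CPM in member pools, as they had in stroma-marker and remaining pools. The endothelium list, which also holds Egfl7 and Eng, has 6 genes in the table with Kdr. Its summed level had medians of 351 CPM in member pools, 155 CPM in stroma-marker pools and 161 CPM in remaining pools.

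Cell cycle genes were higher against the other Negative cells only in part. Of the S phase list 3 of 13 tested genes were higher, Pcna (log2 0.75 ± 0.20, adjusted p = 0.0143 in edgeR), Tyms (0.86 ± 0.18) and Rrm1 (0.83 ± 0.24), and of the G2 and M phase list 1 of 16, Smc4 (0.70 ± 0.19). Ccnd1, which encodes cyclin D1, had a median of 167 CPM in member pools and 55.6 CPM in other pools, a log2 difference of 1.63 ± 0.39 (adjusted p = 0.00708). Pax8, a transcription factor of the mesonephric ducts, was lower, with a member median of 2.71 CPM and a median of 55.3 CPM in remaining cells. Among single genes of other lists, Nnat, an imprinted gene, and Atf3, an immediate early transcription factor, were higher by log2 1.08 and 1.04, while Dhrs3, a retinal reductase, Hey1, a Notch target, Hk1, a hexokinase, and Egr2 were lower, with log2 differences of -1.81, -2.71, -1.83 and -1.32. None of the 8 macrophage genes in the table, Tyrobp among them, passed the count filter, and 7 of them had a median of 0 CPM in member pools. All classes compared here were chosen for Tyrobp below 200 CPM, so low levels of macrophage genes follow at least in part from the rule.

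Against the stroma-marker cells, 3 of 5 tested genes of the surface epithelium list were higher in members (median log2 difference 2.17) and 3 of 7 of the stroma list were lower (median -0.83). The median of 2.17 is the value of Lgr5 (2.17 ± 0.81, adjusted p = 0.208, edgeR), which did not pass the test. Lgr5 was higher in 8 of 11 libraries, and it passed the test in 2 of 23 alternatives. Of the matrix list 2 of 15 were higher and 1 was lower (median 0.25). The classes were divided by Tcf21, Pdgfra and Dcn, so genes that go with these can differ through the division. In 11 paired pools, 71 of 4719 genes were higher and 59 lower (2.75% called, 1.5% and 1.25% in the 2 directions). Sparcl1, a matricellular protein, had 0 to 81.9 CPM in member pools (median 21.2) and 257 to 1896 CPM in stroma-marker pools (median 751), with no overlap (log2 difference -5.32 ± 0.48, adjusted p = 7.59e-07, edgeR). Prrx1, a mesenchymal homeobox gene, Col6a3, a collagen, Dnm3os, a non-coding RNA, and Pcdh11x, a protocadherin, differed by log2 -5.07, -4.42, -4.47 and -4.81. Without the library block Prrx1 lost its call (-3.24, adjusted p = 0.0671 in edgeR), as did Pcdh11x, which also lost it with a Upk3b limit of 50 CPM (highest adjusted p 0.205). Sfrp1, an inhibitor of WNT signals, Col1a2, Nr2f2, a nuclear receptor of mesenchyme, and Zeb2, a repressor of epithelial genes, were lower, with log2 differences of -3.29, -1.69, -1.18 and -3.31. Ildr2 (5.58 ± 0.59, 11 of 11 libraries), Sv2a (5.44), Lrrn4 (5.13), Frem2 (4.83) and Edn2, which encodes endothelin 2 (4.53 ± 1.16, adjusted p = 0.0350), were highest. Edn2 lost its call when any of the libraries 4, 6, 7, 13, 15, 17 or 21 was left out, and the highest adjusted p over its alternatives was 0.109. Podxl (2.81 ± 0.45), Ccnd1 (2.83 ± 0.55), Lama5, a laminin of epithelial basement membranes (3.76 ± 0.89), Lhx9 (1.70 ± 0.27) and Wt1 (0.66 ± 0.15) were also higher. Kitl differed by 0.27 ± 0.36 (adjusted p = 0.859), Pcna by 0.77 ± 0.27 (0.173) and Mki67 by -0.71 ± 0.34 (0.403), none of which passed the test.

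Against the remaining cells, which were chosen for a low sum of Tcf21, Pdgfra and Dcn while 73 of 93 members exceed it, genes that go with these 3 can differ through the division. In 14 paired pools 247 of 5181 genes were higher and 347 lower (11.46% called, 4.77% and 6.7% in the 2 directions). The G2 and M phase list had 12 of 16 genes higher, at a median log2 difference of 1.43, against -0.18 over all genes tested. Against the stroma-marker cells the median of this list was -0.69, and its summed level had medians of 4533 CPM in member pools, 6501 CPM in stroma-marker pools and 1095 CPM in remaining pools. Mki67, which encodes a protein of dividing cells, had 25.9 to 944 CPM in member pools (median 300), against a median of 29.3 CPM in remaining pools (log2 difference 2.22 ± 0.45, adjusted p = 0.00105, edgeR). Cenpf, Cenpe and Tpx2, genes of the mitotic spindle and kinetochore, were higher by 1.67, 1.72 and 1.69, and of the S phase list 4 of 13 were higher. Cdkn1b, Wnt4, Kitl and Inha were lower, with log2 differences of -2.63, -2.52, -1.08 and -2.12. Lrrn4 (5.37), Kif26b (5.17), Sox6 (5.12), Rarres1, a retinoid-responsive gene (4.08), and Tshz3, a zinc finger factor (4.07), were the highest genes. Nr2f2 was higher in members by 1.65 ± 0.26, the other direction than against the stroma-marker cells. The Notch target Hey1 was lower (-2.67 ± 0.84), and Cgn was lower (-0.98 ± 0.26).

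**Figure D4:**
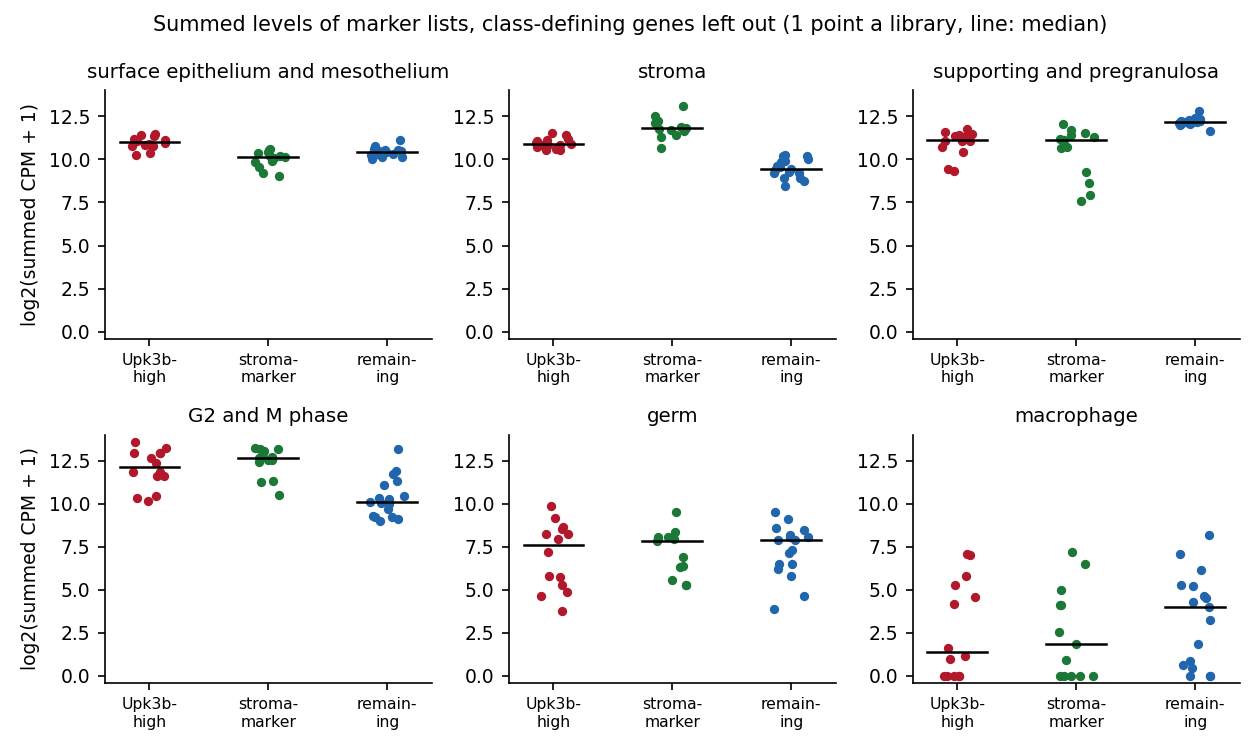
Summed CPM of 6 marker lists, on a log2(CPM + 1) axis, in library pools of Upk3b-high, stroma-marker and remaining Negative cells, without the genes that defined the classes (Upk3b, Tyrobp, Asz1, Tcf21, Pdgfra and Dcn). The Upk3b-high pools have the highest median for the surface epithelium list and lie between the other classes for stroma. The ranges of germ and macrophage genes overlap in all 3 classes, which all passed the Tyrobp and Asz1 limits.

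The stage of development was examined in the 14 member pools, from the slope of log2 level per embryonic day. Of 5237 genes tested, 81 rose and 37 fell (2.25% called, 1.55% and 0.707% in the 2 directions), and with upper-quartile scaling 61 rose and 65 fell. The count depended on single libraries and on pool size. Without library 1 of E11.5, 61 genes were called, without library 8 of E12.5, 67, and without library 23 of E16.5, 74, while pools of at least 5 cells, which leave out pools of several stages, gave 10. Members of E18.5 had a median of 40009 UMIs, the lowest of the stages from E13.5 on, and those of E12.5 had 35247.

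Lgr5 rose through the series. Its pools had 0 CPM at E11.5 (2 pools) and E12.5, 70.7 CPM at E13.5, 87.3 to 199 CPM at E14.5, 181 and 283 CPM at E15.5, 84.5 and 284 CPM at E16.5, 308 CPM at E17.5 and 410 and 656 CPM at E18.5. The slope was 0.84 ± 0.15 per day on the log2 scale (adjusted p = 0.00204, edgeR), and the call was lost with pools of at least 5 cells and when early and late stages were compared as 2 groups (highest adjusted p 0.283). In the other Negative cells, where 419 of 6483 genes had a slope past the test (6.46%, with 3.38% rising and 3.08% falling), Lgr5 also rose, by 0.46 ± 0.12 per day, and the difference of the slopes did not pass the test (adjusted p = 0.152). Podxl had a slope of 0.00 ± 0.06 and Bnc1 one of -0.33 ± 0.18 (adjusted p = 0.391), with Bnc1 means of 157 CPM at E14.5 and 33.4 CPM at E18.5. Lrrn4 (slope -0.02) and Frem2 (-0.09) did not pass the test either.

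Several further genes rose in members with development. Gata3, a zinc finger transcription factor, was at 0 CPM in the 4 pools of E11.5 to E13.5, at 58.2 to 91.4 CPM at E14.5 and at 170 and 345 CPM at E18.5 (slope 1.00 ± 0.21, adjusted p = 0.00793, edgeR). Cav1, the caveolae protein caveolin 1, was at 0 CPM at E11.5, 150.2 CPM at E12.5 and 0 CPM at E13.5, and averaged 147 CPM at E14.5, 437 CPM at E15.5, 608 CPM at E16.5 and 892 CPM at E18.5 (slope 0.87 ± 0.15, adjusted p = 0.00151). Ccnd2, which encodes cyclin D2, rose by 0.42 ± 0.07 per day. Fcgr2b, an Fc receptor, was at most 1.87 CPM up to E14.5 and had 79.9 and 285 CPM at E18.5 (slope 1.795 ± 0.273), and it also rose in other Negative cells by 0.93 per day. Car9, a carbonic anhydrase, Cacnb2, a calcium channel subunit, Mia, Crygb, Cst12 and Aox3 rose by 1.69, 1.16, 1.16, 1.31, 1.03 and 1.02 per day. The calls were lost in 17 of 26 alternatives for Car9, 11 of 26 for Cacnb2 (lowest slope 0.149) and 10 of 26 for Mia. They were lost in 2 of 28 for Crygb, 3 of 28 for Cst12 and 4 of 25 for Aox3. From E11.5 to E18.5 the mean per other Negative cell went from 42.4 to 801 CPM for Cst12 and 1.16 to 224 CPM for Crygb. It went from 10.7 to 73.8 CPM for Gata3, 19.9 to 135 CPM for Cav1 and 0.207 to 38.2 CPM for Mia. It went from 0 to 63.4 CPM for Aox3, 36.2 to 127 CPM for Cacnb2 and 0 to 0.373 CPM for Car9.

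Crabp2, a retinoic acid-binding protein, had 250 and 425 CPM at E11.5, 996 CPM at E12.5 and 441 CPM at E13.5, and at most 20.3 CPM from E15.5 on, a slope of -1.24 ± 0.17 (adjusted p = 8.44e-05, edgeR) that passed the test in all 28 alternatives run. In the other Negative cells its slope was -0.08 ± 0.12, and the difference of the slopes had an adjusted p of 0.0817. Hmga2, a chromatin protein of growing fetal cells, fell by 0.75 per day, with 523 to 1358 CPM in pools of E11.5 and E12.5 and 0 to 97.2 CPM in pools of E17.5 and E18.5, and it also fell in the other cells (slope -0.78). Hoxd9, a homeobox gene, fell with a slope of -0.62 ± 0.13, Nr2f2 with -0.36 ± 0.08, and the replication genes Mcm7 and Tyms with -0.37 and -0.26. Thsd7b, Phlda2, an imprinted gene, and Alpl, an alkaline phosphatase, fell by 1.23, 1.08 and 0.94 per day, and lost their calls in 17, 8 and 5 of 26 alternatives. The levels of Phlda2 and Alpl in early germ cells were higher than in members. Phlda2 had 89.5 CPM per member, 92.3 CPM per other Negative cell and 715 CPM per BVSC cell at E11.5, and 5.24, 3.795 and 1.17 CPM at E18.5. Alpl had 90.2, 27.3 and 509.9 CPM at E11.5 and 0, 1.03 and 6.95 CPM at E18.5.

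**Figure D5:**
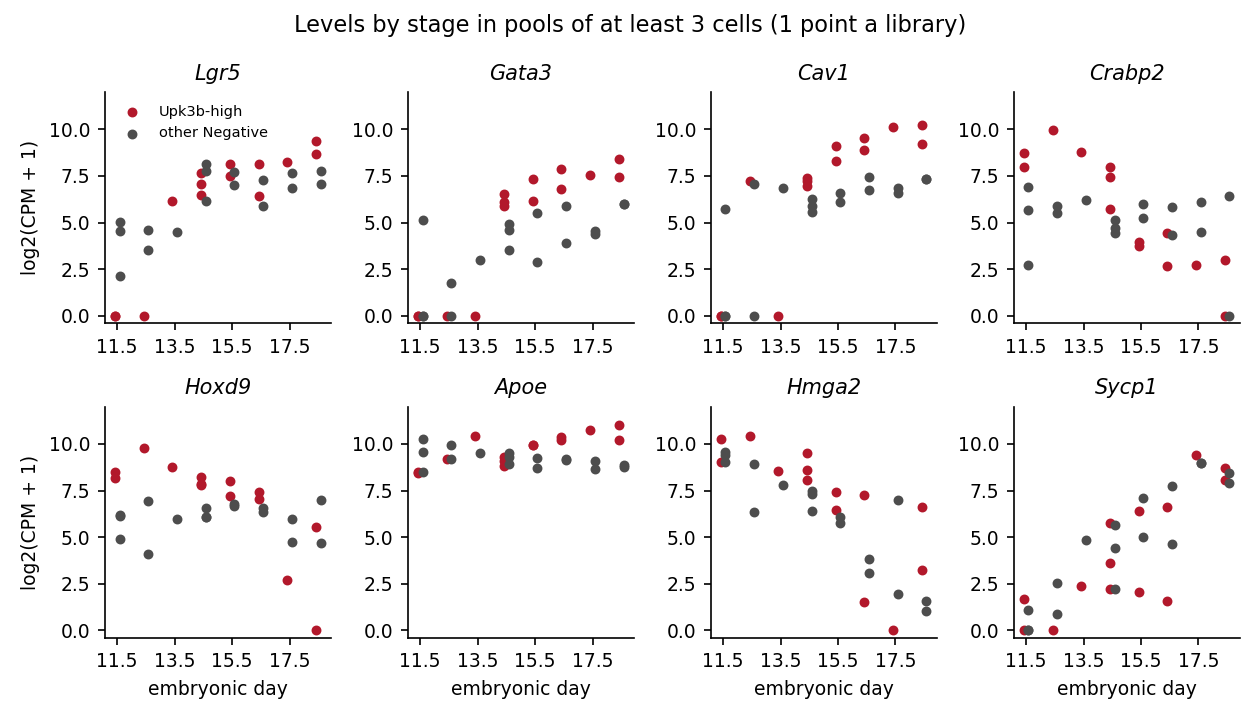
Levels of 8 genes by embryonic day, as log2(CPM + 1), in library pools of Upk3b-high cells (red) and of other Negative cells (grey). Lgr5, Gata3 and Cav1 are at 0 in the Upk3b-high pools of E11.5 and rise, Crabp2 and Hoxd9 fall in these pools, and Sycp1 rises in both classes.

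Some genes with a slope are germ cell genes, and their levels in germ cells are given beside them. Sycp1, of the synaptonemal complex, rose in members by 1.28 ± 0.21 per day (adjusted p = 0.00104, edgeR) and in other Negative cells by 1.19 ± 0.14. Its mean was 0.607 CPM per member, 0.622 CPM per other Negative cell and 40.1 CPM per BVSC cell at E11.5, and 391 CPM, 299.7 CPM and 2832 CPM at E18.5. Mael, of the piRNA pathway, rose by 0.89 in members and 0.72 in other cells. Rhox9, Rhox6 and Utf1, which are high in early germ cells, fell in members by 1.31, 1.04 and 1.19 per day, and in other Negative cells by 1.24, 0.85 and 1.05. At E11.5 Rhox9 had 163 CPM per member, 198 CPM per other cell and 1576 CPM per BVSC cell. The germ list as a whole has 6 genes in the table, among them Asz1, which the rule limits in all these classes. It summed to 13.1 to 997 CPM in member pools, 38.7 to 795 CPM in stroma-marker pools and 13.52 to 787 CPM in remaining pools. The part of RNA from germ cells in these slopes was not tested.

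The stage slope differed between members and other Negative cells for 22 of 5457 genes (0.403%), 20 with a higher slope in members (0.367%) and 2 with a lower one (0.0367%). This count was unstable: it was 1 without library 1, 2 without library 8, 3 without library 21, 8 without library 6, 9 without each of libraries 17, 19 and 23, 11 without library 3, 13 without library 24 and 50 without library 26. Apoe, the lipid carrier, had the lowest adjusted p of these genes (0.00193, edgeR, chosen after its value was seen). It averaged 354 CPM at E11.5, 1375 CPM at E13.5 (1 pool), 539 CPM at E14.5 and 1622 CPM at E18.5 in members, against 780 CPM, 734 CPM, 610 CPM and 448 CPM in other cells, a difference of slopes of 0.39 ± 0.06. The genes with the largest differences were Trp53inp1, a p53 target, with 1.07 ± 0.24, Anxa4, an annexin, with 0.78 ± 0.17, Cst8, a cystatin, with 0.62 ± 0.13, Nr0b1, the nuclear receptor DAX1, with 0.60 ± 0.13, and Crot, a peroxisomal carnitine acyltransferase, with 0.59 ± 0.13. Crot averaged 13.3 CPM at E11.5 and 435 CPM at E18.5 in member pools, against 126 CPM and 256 CPM in other pools. Hoxd9 (-0.78 ± 0.15) and Cd24a, a surface glycoprotein (-0.67 ± 0.15), had the lower slopes. Cd24a had 361 and 626 CPM at E11.5 and at most 31.2 CPM at E18.5 in member pools, against 94.2 to 511 CPM and 67.7 to 436 CPM in other pools.

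Across the 529 Negative cells, the genes whose CPM ranked most like Upk3b among 6593 genes were Dcn (Spearman rho 0.53), Eln, which encodes elastin (0.50), Ildr2 (0.50), Ltbp4, a latent TGF-beta binding protein (0.48), Stk26, a kinase (0.48), Amh (0.47), Frem2 (0.46), Megf6 (0.46), Cldn15 (0.46) and Cav1 (0.44). The cells share libraries and depth, so these values are descriptions. Among the 93 members alone the values were 0.44 for Megf6, 0.41 for Eln, 0.40 for Ltbp4 and 0.40 for Cldn15. For Amh, the anti-Mullerian hormone, the value within members was -0.16, and its mean level was 26.3 CPM in members and 19.1 CPM in other Negative cells.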

How the data were processed

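Single cells were measured with a modified STRT-seq protocol. The count table deposited by the authors holds UMI counts per gene and cell. The submitters' processing notes name STAR, featureCounts, Subread, UMI-tools and CASAVA 1.8, with mm10 as build; no source used here gives the strand setting or the annotation. The table read here ends within chromosome 8: its 16344 complete genes (1 incomplete row was dropped) lie on chromosomes 1 to 7, 10, X and the start of 8 and hold a median of 51.2% (40.1% to 56.4%) of a cell's deposited UMIs; other genes were not analysed here. CPM is per 1000000 of these UMIs. No doublet caller was run on hand-picked cells.

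Counts were summed per class and library (pools of at least 3 cells) and tested with edgeR 4.0.16 (R 4.3.3) quasi-likelihood fits after filterByExpr and TMM scaling, with a Benjamini-Hochberg adjusted p of at most 0.05 called; libraries were blocks in comparisons between classes, which pairs cells of the same library. Standard errors are the absolute log2 change divided by the square root of F. Upk3b, Tyrobp and Asz1, and Tcf21, Pdgfra and Dcn where they divided classes, were not counted as called. Shares were compared by exact permutation (scipy 1.17.1), with exact Clopper-Pearson 95% intervals. Named genes were those with the largest called changes and a mean of at least 20 CPM in a class, with Bnc1, Podxl and Lgr5 always named; others come from the lists of markers and pathways. The members and lists were chosen with earlier results of these data known. The fits were tested on simulated counts, where small changes were often missed. Log2 differences of 1 and 2 from other Negative cells were recovered in 32% and 80% of cases. Member slopes of 0.3 and 0.6 per day were recovered in 26% and 74%, and differences of slopes of these sizes in 22% and 46%. A gene that did not pass the test is thus not shown to be unchanged. Alternatives were DESeq2 1.42.0, upper-quartile scaling, no filter, other pool sizes and Upk3b limits, thinned pools, no block and leaving out each library. Single genes counted in a list but not named are not reported here.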

Additional observations from a re-analysis of the deposited data

Results flagged for a closer look

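For 7 named genes the stage slope in Upk3b-high cells differed from that in other Negative cells by the test of the difference itself (edgeR interaction term, per embryonic day on the log2 scale). The differences were 1.07 for Trp53inp1 (adjusted p = 0.0385), 0.779 for Anxa4 (0.0327), 0.625 for Cst8 (0.0226), 0.595 for Nr0b1 (0.0385), 0.589 for Crot (0.0327), -0.776 for Hoxd9 (0.0226) and -0.666 for Cd24a (0.0466). Each of the 7 lost its call in at least 7 of its 26 or 27 alternatives. Outside the Negative gate, Upk3b reached 100 CPM in 4 of 1302 BVSC cells (0.307%, exact 95% interval 0.0838% to 0.785%), and none of the 4 was also under the Asz1 and Tyrobp limits. None of 50 BV cells reached 100 CPM, which allows a share of up to 7.11% by the exact 95% interval.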

How the results depend on the processing

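The alternatives changed counts more than directions. Against the other Negative cells (527 genes) the count was 1097 with DESeq2, 855 without a filter on low counts, 264 with pools of at least 5 cells, 236 with a Upk3b limit of 50 CPM, 225 with pools thinned to equal depth, and 375 to 517 without 1 library each. Against stroma-marker cells (130) it was 402 with DESeq2, 291 without a filter, 198 with the rule's CPM by deposited totals, 84 thinned, and 87 to 145 without 1 library. Against remaining cells (594) it was 1180, 311 with pools of at least 5 cells, 309 thinned, and 472 to 624 without 1 library. The stage trend in members (118) gave 391 with DESeq2, 530 without a filter, 10 with pools of at least 5 cells, 62 and 63 with limits of 200 and 400 CPM, 61 by deposited totals, 24 with early and late stages as 2 groups, 67 without libraries 13 and 23, and 61 to 145 without 1 library. The trend in other cells (419) gave 760, 1003, 60 as 2 groups, and 297 to 524. The difference of trends (22) gave 7 with upper-quartile scaling, 188 with DESeq2, 66 without a filter, 0 with a limit of 50 CPM, 6 with 200 CPM, 4 with 400 CPM, 13 by deposited totals, 36 thinned, 48 with all other Negative cells, and 1 to 50 without 1 library.

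Without the library as replicate block the counts were 387, 104, 498 and 19 for members against other Negative cells, members against stroma-marker Negative cells, members against the remaining Negative cells and the difference of stage trends. The difference in share of 3.18 points was 2.80 to 11.3 under other settings and 0.663 to 5.31 without 1 library. Lgr5 in members against the remaining Negative cells turned to -0.161 with pools of at least 2 cells, -0.0189 with a limit of 200 CPM and -0.0207 by deposited totals, and ranged from -0.0738 to 0.305 without 1 library each, below 0 without libraries 3, 4, 21, 24 or 26. Podxl in stage trend in members turned to -0.0168 with upper-quartile scaling, -0.0454, -0.00634 and -0.0138 with pools of at least 2 cells and limits of 50 and 200 CPM, -0.0118 by deposited totals, and ranged from -0.0226 to 0.0418 without 1 library each, below 0 without libraries 1, 3, 6, 7 or 21. Podxl in difference of stage trends was -0.0256 thinned. None of these values passed the test, and the cause was not tested. Some named genes kept their call under every alternative in which they were tested. They were 16 of 21 called genes against other cells, 8 of 11 against stroma-marker cells and 9 of 12 against remaining cells. For the member trend they were 1 of 17, and for the difference of trends 0 of 7. A gene that did not pass the count filter of an alternative was not tested there. Against other Negative cells Lrrn4 was tested in 8 alternatives, Rasgrp1 in 9, Pla2r1 in 10 and Nfe2l3 in 11, and Podxl and Cntn4 in 28. Leaving out libraries 13 and 23, E18.5, or merging libraries by deposited replicate was chosen after seeing the data. Pools of 3 or 4 cells limit the precision at several stages.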
